A study of Mus musculus with 5 samples.

Results

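Aminoacyl-tRNA synthetases, the enzymes that join each amino acid to its tRNA, were described in BV-2, a microglial line from mouse. The family was chosen with earlier results of these data known. Its genes were taken by symbol, as every row of the count table whose symbol has the form of a synthetase name. This gave 37 of 40879 gene symbols. Symbols ending in 2 were taken as the 17 mitochondrial enzymes and the others as the 20 cytosolic enzymes. Each of 5 libraries came from 1 group. The particle group received urban particulate matter (UPM, 50 µg/mL) for 23 h. The 3 TZ groups received trazodone, an antidepressant, at 1.25, 2.5 or 5 µg/mL for 1 h before the same UPM exposure (TZ 1.25, TZ 2.5 and TZ 5). The normal control received neither agent, as far as its label says. All 5 libraries are of this 1 line, and whether the control received a vehicle is not given in sources used here.

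Messenger RNA was counted by 3′-end sequencing (QuantSeq), which gives reads near the poly(A) end of each transcript. Totals ran from 6829720 to 7696168 counts per library. Of 11 microglial marker genes 9 had at least 10 normalised CPM in all 5 libraries, while P2ry12 had 5 to 11 counts and Tmem119 had 23 to 57, so these defining markers of microglia in tissue were nearly absent. The 15 markers of astrocytes, neurons, oligodendrocytes, endothelium and fibroblasts summed to between 29 and 47 counts, and 3 of them were listed at 0 throughout. There was no replicate of any group, so each difference below is between single libraries and has no replicate check. Intervals in parentheses are 95% counting intervals, which leave out variation between cultures. Reads carry no molecular identifiers, so amplified copies cannot be told from separate molecules. The intervals take every read as separate and may be too narrow even for counting error.

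A synthetase activates its amino acid with ATP and transfers it to the end of the matching tRNA, so that the ribosome reads each codon correctly. The cytosol and the mitochondrion use largely separate sets of enzymes, both encoded in the nucleus. Glycyl- and lysyl-tRNA synthetases (Gars and Kars) are exceptions, since 1 gene serves both compartments. Several cytosolic enzymes are held together by scaffold proteins in the multi-synthetase complex. In mammalian cells many cytosolic synthetase genes are induced by ATF4, the transcription factor of the amino acid and integrated stress responses.

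ATF4 and its C/EBP partners bind a composite element whose core is TGATGNAA, where N is any base. This core was searched on both strands of RefSeq promoters (build GRCm38.p6), each 300 bases long with 250 before and 50 after the annotated start. Entries matched 27 of the 37 genes by symbol, and Cars, Hars, Hars2, Lars, Nars, Pars2, Rars, Vars and Wars1 were among the 10 others. The core was found in 5 of these 27 genes, beside 4.51% of all 27025 genes in the table. By promoters it was 5 of 28 for the synthetases, or 17.9%, beside 3.97% of all 32851. The 5 genes all belong to a list of 12 synthetases taken as ATF4-responsive, 8 of which had an entry. That list was written from general knowledge of mammalian cells and not from a published source, and it was not tested here. It was also chosen with earlier results of these data known. None of the 19 other genes with an entry held the core, and all 14 mitochondrial genes with an entry were among them. One match in each of these 5 genes is shown so that the letters behind this count can be read. Capitals mark the core, and each line is printed on the strand on which the core reads 5′ to 3′.
Aars, downstream of the start (chr8:111033841-111033868, minus strand): cagagcgctcTGATGAAAagtgacccgc
Gars, upstream of the start (chr6:55037961-55037988, minus strand): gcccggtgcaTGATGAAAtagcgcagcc
Tars, upstream (chr15:11399656-11399683, plus strand): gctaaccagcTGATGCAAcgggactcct
Iars, downstream (chr13:49682127-49682154, minus strand): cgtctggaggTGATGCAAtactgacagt
Yars, downstream (chr4:129189896-129189923, plus strand): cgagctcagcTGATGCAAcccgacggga
Of the 5 matches shown 3 read TGATGCAA and 2 read TGATGAAA. A match describes these letters only and was not tested as a binding site. The data were aligned to another build, GRCm39, so these coordinates belong to the RefSeq table and not to the count files.

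All 37 genes had counts in all 5 libraries. The 20 cytosolic genes had 317 to 4198 counts in a library, and their mean level ran from 49.9 to 546 normalised CPM (counts scaled to a common library total, with a TMM factor that aligns the bulk of genes between libraries). The 17 mitochondrial genes had 9 to 987 counts, and 7 of them had a mean under 10 CPM. These 7 were Aars2, Cars2, Mars2, Pars2, Sars2, Vars2 and Wars2. One poly(A) end gives about one read whatever the transcript's length, so CPM was not divided by length, and levels are compared between libraries rather than between genes.

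Summed over the 20 cytosolic genes, the level was 3610 normalised CPM (3568 to 3653) in UPM, 3651 (3607 to 3695) at TZ 1.25, 3832 (3786 to 3878) at TZ 2.5 and 3779 (3733 to 3825) at TZ 5, against 4016 (3971 to 4062) in the control. The control was the highest of the 5 and its counting interval did not meet those of the others. Cytosolic counts in UPM were 0.899-fold (0.884 to 0.914) those in the control. TZ 2.5 stood at 1.06-fold (1.04 to 1.08) UPM and TZ 5 at 1.05-fold (1.03 to 1.06), while TZ 1.25 at 1.01-fold (0.994 to 1.03) could not be told from UPM. TZ 5 was still 0.941-fold (0.925 to 0.957) the control. In these bulk libraries fewer expressing cells and less RNA per cell cannot be told apart.

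The 17 mitochondrial genes summed to 333 normalised CPM (320.2 to 346) in UPM, 326 (313 to 339) at TZ 1.25, 334 (320.3 to 348) at TZ 2.5 and 344 (331 to 358) at TZ 5, against 357 (344 to 371) in the control. Mitochondrial counts in UPM were 0.932-fold (0.883 to 0.985) the control, and the 3 TZ libraries stood at 0.978-fold to 1.03-fold UPM with intervals that all held 1. The mitochondrial share of all synthetase counts was 8.44% (8.13 to 8.76) in UPM, 8.19% (7.87 to 8.51) at TZ 1.25, 8.01% (7.70 to 8.33) at TZ 2.5 and 8.35% (8.03 to 8.68) at TZ 5, against 8.17% (7.87 to 8.47) in the control. All 5 intervals overlapped, so a shift between the compartments was not detectable at this depth. Iars2, the mitochondrial isoleucine enzyme, alone made up 32.1% to 38.7% of mitochondrial counts. Without it the mitochondrial sum was 1.11-fold (1.04 to 1.19) UPM at TZ 2.5 and 1.12-fold (1.05 to 1.21) at TZ 5, so the near-level total held members that differed in opposite directions.

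**Figure D1:**
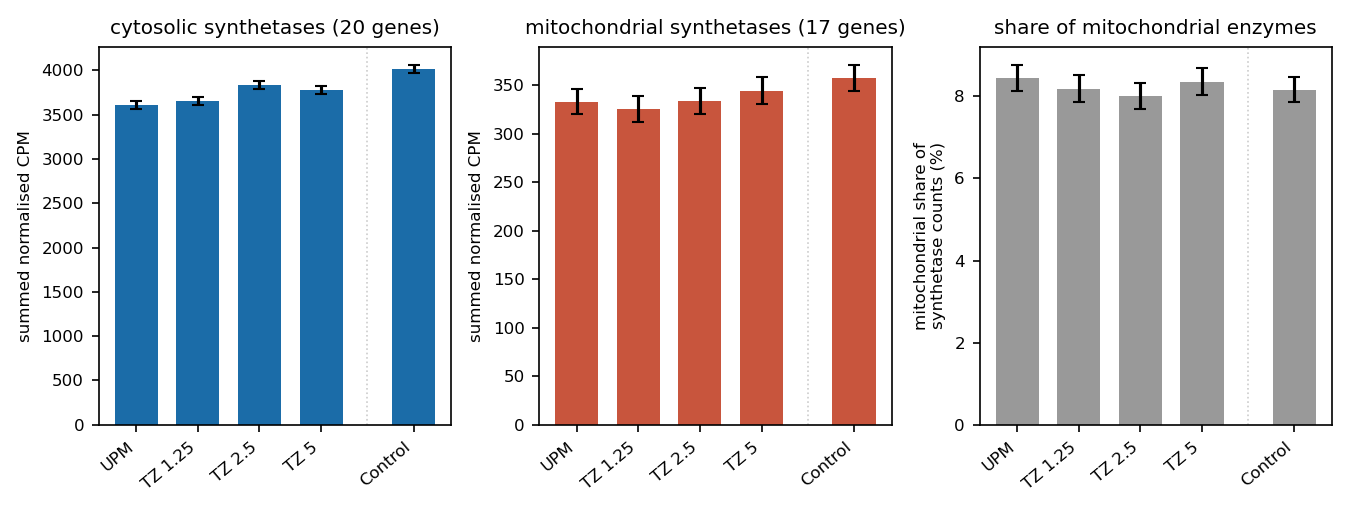
Summed normalised CPM of the 20 cytosolic genes (left) and the 17 mitochondrial genes (middle), and the mitochondrial share of synthetase counts in percent (right), in each of the 5 libraries. Bars are single libraries and whiskers are 95% counting intervals. The cytosolic sum is 3610 in UPM and 4016 in the control, while the share lies between 8.01% and 8.44% in all libraries.

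UPM against control asks what particle exposure changed. By the rule used for single genes (a fold of at least 1.5 in either direction, a counting interval that excludes 1 and a mean of at least 10 CPM in the pair) none of the 29 measured synthetases was called, where 1.67% of all 8282 measured genes were called higher and 1.41% lower. Smaller differences lay mostly on the low side. In UPM 12 of the 29 had an interval wholly below 1, or 41.4%, beside 18.6% of all measured genes, and 1 had an interval above 1, beside 15.4%. The median log2 fold was −0.14 over the 20 cytosolic genes and −0.11 over the 9 measured mitochondrial genes, beside −0.0047 over all measured genes.

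The seryl enzyme gene Sars had 276 normalised CPM in UPM, against 369 in the control, a fold of 0.750 (0.708 to 0.794). Yars, for tyrosine, had 46.3 in UPM against 58.7 in the control (0.788-fold, 0.683 to 0.908). Cars, for cysteine, had 75.1 against 94.5 (0.795-fold, 0.711 to 0.889). These were the 3 lowest cytosolic folds in UPM. All 3 genes are on the list of ATF4-responsive synthetases, which holds 12 of the 20 cytosolic genes. An interval below 1 was found for 6 of these 12 (50%) and for 4 of the 8 others (50%). Their median log2 folds were −0.16 and −0.12, so the list did not stand apart here. Aars, for alanine, was the 1 gene with an interval above 1, at 121 normalised CPM in UPM against 109 in the control (1.11-fold, 1.01 to 1.22). In the GENCODE annotation exons of Aars overlap those of Exosc6 on the same strand, so reads there cannot be told apart even with strand. Hars, for histidine, at 1.07-fold (0.982 to 1.17) and Qars, for glutamine, at 1.01-fold (0.891 to 1.14) were the next highest, and their intervals held 1. Among mitochondrial genes Hars2 had 10.8 normalised CPM in UPM against 16.2 in the control (0.668-fold, 0.499 to 0.890), just short of the limit. Yars2 had 28.6 against 38.6 (0.741-fold, 0.619 to 0.887). Nars2, at 1.18-fold (0.875 to 1.58), and Ears2, at 1.15-fold (0.908 to 1.47), were among the highest mitochondrial folds, and their intervals held 1.

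In a fit of all 5 libraries, with a term for UPM and a linear term for TZ dose, the UPM term called none of the 37 genes (edgeR quasi-likelihood test, Benjamini-Hochberg adjusted over 12381 genes), where 0.0808% of genes were called higher and 0.0323% lower. At an unadjusted p under 0.05 there were 2, Sars and Gars, and DESeq2 called 0 with 0 at an unadjusted p under 0.05. Over all genes 964 of 12381 had such a p in edgeR and 226 of 19451 in DESeq2. The UPM coefficient was negative for 29 of the 37, beside 6088 of all 12381 genes. Its median was −0.14 on the log2 scale, beside 0.0045 over all genes. All 37 coefficients rest on the same control library. The spread behind this term came from the 4 UPM libraries around their dose line, and the control was taken to share it. Without TZ 5 the UPM term called Sars.

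**Figure D2:**
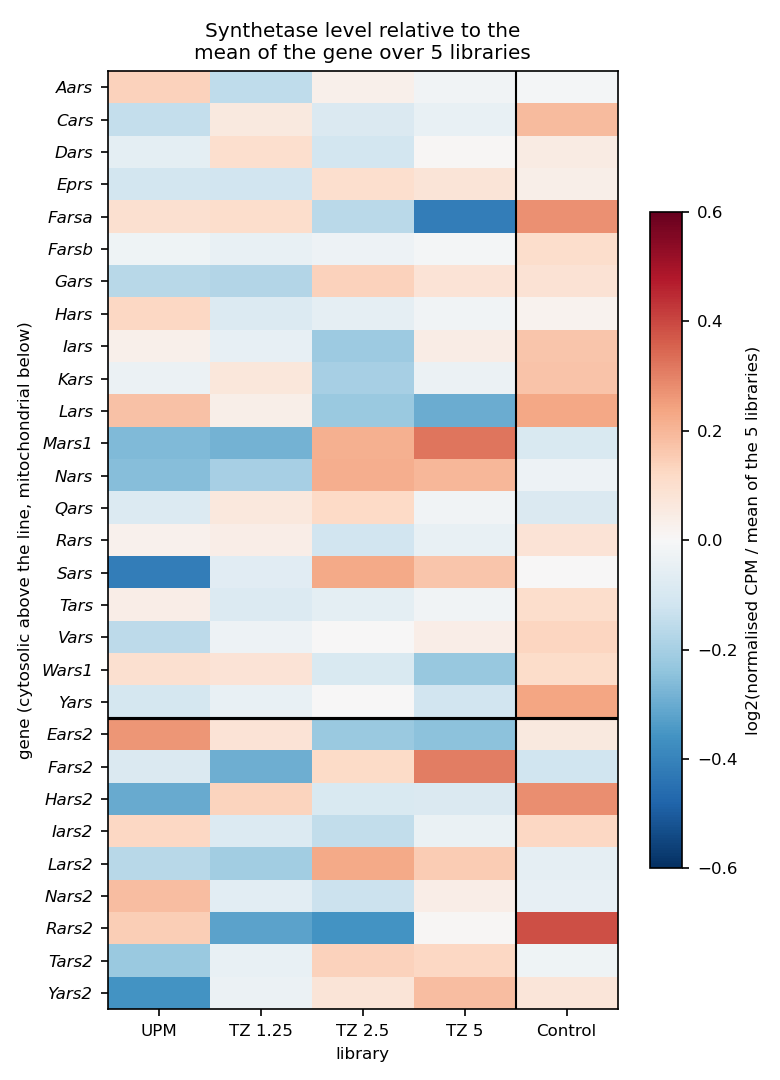
Level of 29 synthetase genes with a mean of at least 10 normalised CPM over the 5 libraries, as log2 of the level over the gene's own mean. Columns are single libraries with the control at the right, red is above the mean and blue below, and the horizontal line parts 20 cytosolic from 9 mitochondrial genes. Sars is lowest in UPM, and Farsa and Lars are lowest in TZ 5.

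The TZ libraries against UPM ask what trazodone changed when given ahead of the particles. The 3 comparisons share the UPM library, which also stands over the control in the comparison above, so a gene that happened to be low in UPM stands higher in all of them. At TZ 1.25 none of 29 measured synthetases was called, where 1.19% of 8336 genes were called higher and 1.03% lower. At TZ 2.5 the 1 gene of 30 called was Sars, higher, where 2.67% were called higher and 1.73% lower. At TZ 5 the 1 gene of 30 called was Mars1, the methionyl enzyme, higher at 1.503-fold (1.33 to 1.70), with Sars just short of the limit at 1.49-fold (1.41 to 1.58), where 3.78% were called higher and 2.8% lower. These counts are near or below the background.

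Intervals that excluded 1 were more frequent than calls, both among the synthetases and over all measured genes. Only at TZ 2.5 were both synthetase shares well above those of all measured genes. At TZ 2.5 9 of 30 measured synthetases lay above UPM and 10 below (33.3%), beside 20.3% and 20.7% of all measured genes. At TZ 5 8 lay above (26.7%) and 7 below (23.3%), beside 23.3% and 21.7%. At TZ 1.25 4 of 29 lay above (13.8%) and 6 below (20.7%), beside 14.4% and 15.5%. The median log2 fold over the cytosolic genes was 0.0044 at TZ 1.25, −0.027 at TZ 2.5 and 0.014 at TZ 5, and over the measured mitochondrial genes it was −0.042, 0.20 and 0.040, beside medians within 0.01 of 0 over all measured genes. The family thus held genes on both sides of UPM rather than a common shift.

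**Figure D3:**
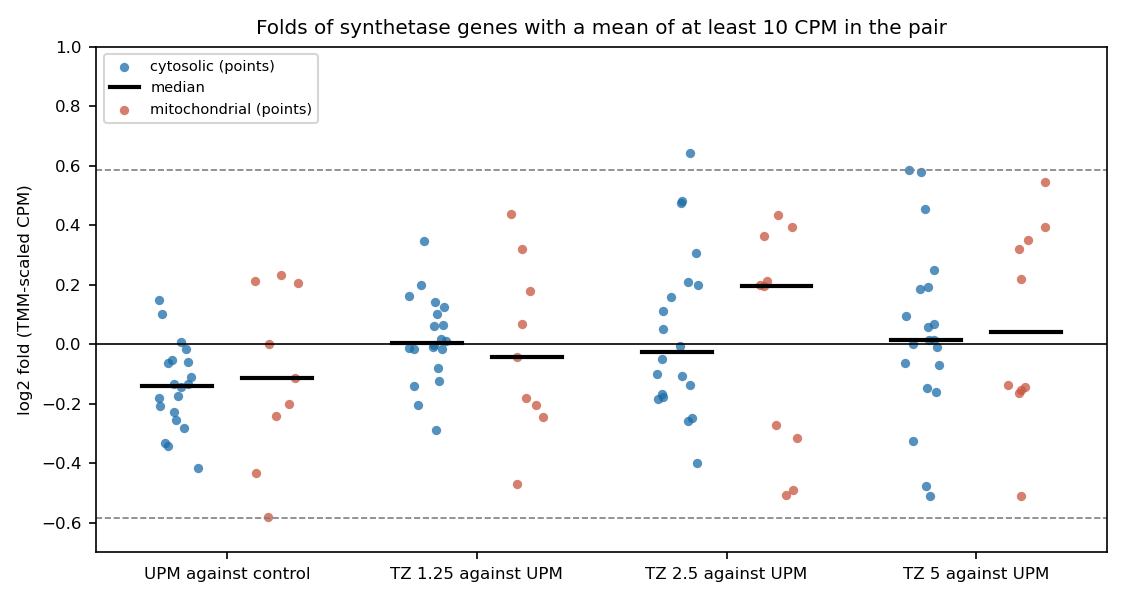
Log2 fold of each measured synthetase gene in UPM against control and in each TZ library against UPM, with cytosolic genes in blue and mitochondrial genes in red. Each point is 1 gene in 1 pair of libraries, thick bars are medians, and dashed lines mark a fold of 1.5. The cytosolic median is −0.14 in UPM against control and lies between −0.027 and 0.014 in the TZ comparisons.

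The fit with TZ dose as a number called 5 of the 37 genes, all cytosolic. Mars1, Nars and Sars rose with dose, and Farsa and Lars fell (edgeR quasi-likelihood test, Benjamini-Hochberg adjusted p under 0.05 over 12381 genes). Of all genes 2.95% rose and 2.5% fell. The synthetases that rose were 8.11% of the 37 and those that fell were 5.41%. A further 4 genes had an unadjusted p under 0.05 only. None of the 17 mitochondrial genes was called by edgeR, with 2 (Yars2 and Ears2) at an unadjusted p under 0.05. Over all genes 2175 of 12381 had such a p in the dose trend by edgeR, and 1036 of 19451 by DESeq2. DESeq2 gave an adjusted p for only 1 of the 17, Iars2, since it sets genes of low counts aside, and had 0 at an unadjusted p under 0.05. The fit has 2 residual degrees of freedom beside 48.7 borrowed across genes, so its p-values rest mostly on spread shared between genes.

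Sars encodes the cytosolic seryl enzyme. Its level was 276 normalised CPM in UPM, 351 at TZ 1.25, 431 at TZ 2.5 and 413 at TZ 5, against 369 in the control. UPM was the lowest library and both higher doses stood above the control. The slope was 0.11 log2 units per µg/mL (SE 0.025, adjusted p = 0.00421). The call was lost with DESeq2 (adjusted p = 0.232) and without the UPM library (adjusted p = 0.615), where the slope was 0.048. Without TZ 5 the slope was 0.26 and Sars was called.

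Nars, for asparagine, had 339 normalised CPM in UPM, 353 at TZ 1.25, 471 at TZ 2.5 and 465 at TZ 5, against 397 in the control. The 2 lower libraries were UPM and TZ 1.25, and the control lay between them and the higher doses. Nars rose by 0.10 per µg/mL on the log2 scale (SE 0.024, adjusted p = 0.00499), and was not called without the UPM library (slope 0.087, adjusted p = 0.157). Without TZ 5 the slope of Nars was 0.19 and it was called. Mars1, for methionine, which also charges the initiator tRNA, had 60.5 in UPM, 59.9 at TZ 1.25, 84.4 at TZ 2.5 and 90.9 at TZ 5, against 68.3 in the control. It rose by 0.13 per µg/mL (SE 0.031, adjusted p = 0.00459) and was not called without TZ 5 (slope 0.19, adjusted p = 0.0623). As with Nars, both higher doses stood above the other 3 libraries. In the GENCODE annotation the exons of Mars1 overlap those of Ddit3, the stress factor CHOP, on the opposite strand, and whether strand was used in counting is not given in sources used here. Ddit3 had 53.6 normalised CPM in UPM, 74.8 at TZ 1.25, 75.6 at TZ 2.5 and 65.3 at TZ 5, against 98.6 in the control. The part of Ddit3 reads in the Mars1 counts was not tested.

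Farsa and Farsb encode the alpha and beta subunits of the cytosolic phenylalanyl enzyme, which works as a tetramer of both. Farsa had 373 normalised CPM in UPM, 376 at TZ 1.25, 312 at TZ 2.5 and 262 at TZ 5, against 422 in the control. TZ 5 was the lowest library, at 0.702-fold (0.662 to 0.745) UPM and at 0.620-fold (0.585 to 0.657) the control. Against the control Farsa was the 1 synthetase of 30 called at TZ 5, where 3.55% of all measured genes were called higher and 2.51% lower. Of the 30 there, 3 had an interval above 1 (Mars1, Nars and Sars) and 11 an interval below 1, beside 21.9% and 22.4% of all measured genes. Farsa fell by 0.11 per µg/mL with TZ dose on the log2 scale (SE 0.023, adjusted p = 0.00108), and was not called without TZ 5 (slope −0.10, adjusted p = 0.216).

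Farsb had 190.3 normalised CPM in UPM, 188 at TZ 1.25, 189.7 at TZ 2.5 and 192 at TZ 5, against 209 in the control. Its slope was 0.0040 per µg/mL (SE 0.023, adjusted p = 0.961). Farsa made up 66.2% (64.8 to 67.6) of the counts of both subunit genes in UPM, 66.7% (65.2 to 68.1) at TZ 1.25, 62.2% (60.6 to 63.8) at TZ 2.5 and 57.7% (55.9 to 59.4) at TZ 5, against 66.9% (65.5 to 68.2) in the control. This share needs no scaling between libraries. The intervals of TZ 2.5 and TZ 5 lay below those of the other 3 libraries, so the counts of the 2 subunit genes stood in another ratio there. Exons of Farsb overlap those of Sgpp2 on the opposite strand, and the part of Sgpp2 reads in its counts was not tested. A difference of slopes between Farsa and Farsb was not tested.

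Lars, for leucine, whose protein also acts as a leucine sensor of the mTORC1 pathway, had 254 normalised CPM in UPM, 231 at TZ 1.25, 193 at TZ 2.5 and 183 at TZ 5, against 264 in the control. The level was lower at each higher dose, and TZ 5 was 0.719-fold (0.669 to 0.772) UPM. Lars fell by 0.098 per µg/mL on the log2 scale (SE 0.023, adjusted p = 0.00638). Without the UPM library it was not called (slope −0.083, adjusted p = 0.206), and without TZ 5 the slope was −0.16 and Lars was called. Each of the 5 genes thus kept its direction and lost its call when 1 particular library was left out.

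**Figure D4:**
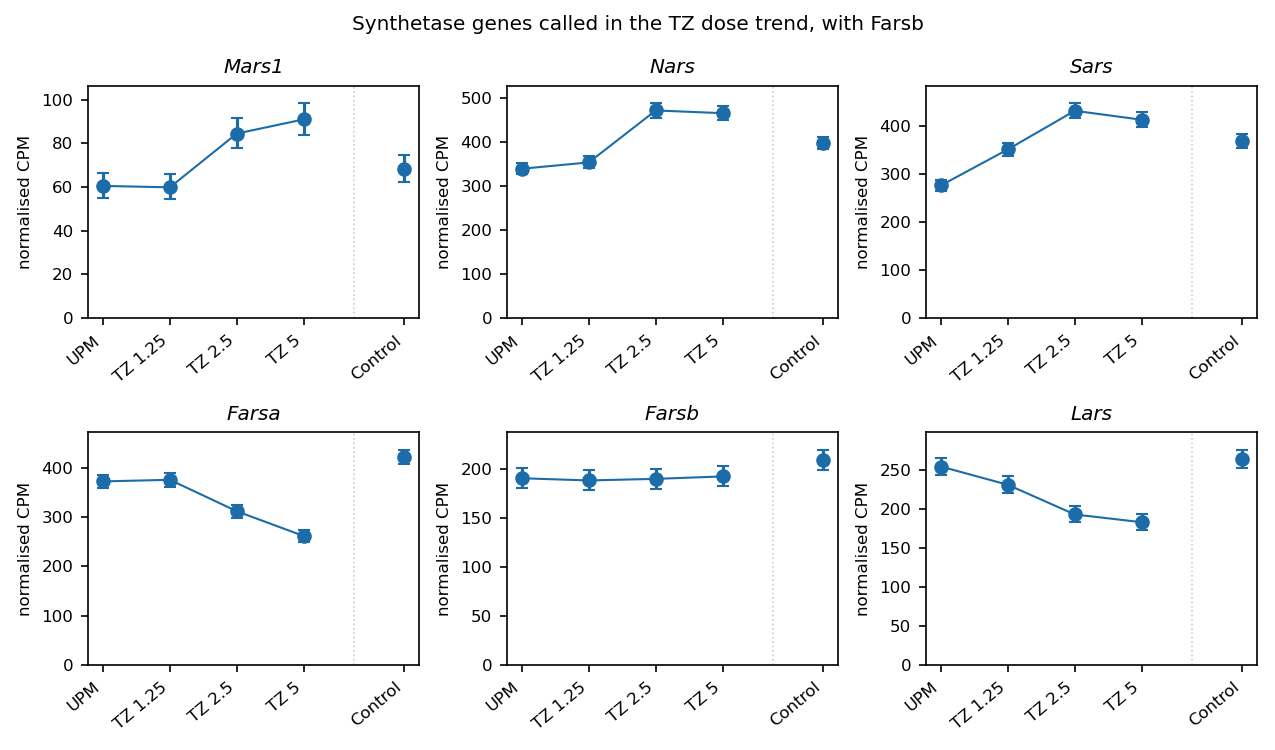
Normalised CPM of the 5 genes called in the dose trend, and of Farsb as the partner subunit of Farsa, in each library, with the control at the right. Points are single libraries, whiskers are 95% exact Poisson counting intervals and lines join the UPM libraries in order of dose. Farsa is 262 in TZ 5 and 373 in UPM, while Farsb lies between 188 and 192 in the 4 UPM libraries.

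Small nucleolar RNAs, which lack poly(A) tails, had a lower share of counts at each higher dose. Their share of counts was 0.111% in UPM, 0.103% at TZ 1.25, 0.0679% at TZ 2.5 and 0.0486% at TZ 5, against 0.0892% in the control. Their part in the synthetase results was not tested.

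Of the other 15 cytosolic genes none was called in the dose trend by edgeR or DESeq2, with 2 at an unadjusted p under 0.05 in edgeR. They were Gars, for glycine, and Wars1, the tryptophanyl enzyme, which is known in human cells as interferon-induced. Gars had 137 normalised CPM in UPM, 137 at TZ 1.25, 170.0 at TZ 2.5 and 163 at TZ 5, against 164 in the control. Its dose slope was 0.059 (SE 0.025, adjusted p = 0.191). Wars1 had 66.3 in UPM, 65.7 at TZ 1.25, 58.3 at TZ 2.5 and 52.9 at TZ 5, against 67.0 in the control, with a slope of −0.070 (SE 0.032, adjusted p = 0.224). The 2 higher doses lay above UPM for Gars and below it for Wars1.

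Eprs makes a fused enzyme for glutamate and proline. It had 505 normalised CPM in UPM, 504 at TZ 1.25, 584 at TZ 2.5 and 576 at TZ 5, against 559 in the control. Vars, for valine, had 97.4, 106, 109 and 111 in the 4 UPM libraries in order of dose, against 118 in the control. Both genes were lowest in UPM or TZ 1.25. Yars had 46.3, 48.4, 49.9 and 46.0 in order of dose, against 58.7 in the control. Cars had 75.1, 86.3, 77.9 and 80.4, against 94.5. For Yars and Cars the control was the highest of the 5 libraries. Aars had 121 in UPM, 99.0 at TZ 1.25, 112 at TZ 2.5 and 108 at TZ 5, against 109 in the control. Hars had 135, 117, 119 and 122 in order of dose, against 126 in the control, and its exons overlap those of Hars2 on the opposite strand. Aars and Hars were the 2 cytosolic genes whose highest library was UPM. Tars, for threonine, ran from 309.7 to 352, with the control highest.

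The 8 enzymes of the multi-synthetase complex summed to 1417 normalised CPM in UPM, 1413 at TZ 1.25, 1416 at TZ 2.5 and 1440 at TZ 5, against 1530 in the control. UPM was 0.926-fold (0.902 to 0.951) the control, and the 3 TZ libraries stood between 0.997-fold and 1.02-fold UPM with intervals that held 1. Within this level sum Mars1 rose with dose and Lars fell, as given above, and the other 6 were not called. Besides Eprs these were Iars, Qars, Rars, Kars and Dars. Iars, for isoleucine, had 85.6, 80.9, 72.0 and 86.4 normalised CPM in the 4 UPM libraries in order of dose, against 94.0 in the control. Kars, for lysine, had 122, 131, 109 and 122, against 141. For both genes TZ 2.5 was the lowest library and the control the highest. Rars, for arginine, had 260.1, 263, 236 and 248, against 271. Dars, for aspartate, had 58.3, 65.3, 56.3 and 61.1, against 63.0. Qars had 70.8, 78.2, 81.3 and 73.7, against 70.4. The highest of the 5 libraries was between 1.15 and 1.30 times the lowest for each of these 5 genes.

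The 3 scaffolds of the complex are Aimp1, Aimp2 and Eef1e1. Their sum was 265 normalised CPM in UPM, 255 at TZ 1.25, 304 at TZ 2.5 and 296 at TZ 5, against 274 in the control. TZ 2.5 stood at 1.15-fold (1.08 to 1.22) UPM and TZ 5 at 1.12-fold (1.05 to 1.19). Aimp1, which gave most of this sum, had 158.3 in UPM, 157 at TZ 1.25, 189.8 at TZ 2.5 and 190.1 at TZ 5, against 158.1 in the control. Aimp2 had 64.6 in UPM, 55.7 at TZ 1.25, 66.3 at TZ 2.5 and 55.8 at TZ 5, against 66.3 in the control, and at TZ 5 it stood at 0.865-fold (0.755 to 0.990) UPM. Eef1e1 had 42.5, 41.6, 48.4 and 50.5 in order of dose, against 49.8 in the control. At TZ 5 Aimp1 and Eef1e1 thus lay above UPM and Aimp2 below it. The Aimp1 dose slope of 0.061 (SE 0.024) was not called (adjusted p = 0.147), nor were those of Aimp2 and Eef1e1, and DESeq2 called 0 of the 3.

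The 10 mitochondrial genes with a mean of at least 10 normalised CPM lay on both sides of UPM. Yars2 had 28.6 in UPM, 35.8 at TZ 1.25, 38.7 at TZ 2.5 and 41.8 at TZ 5, against 38.6 in the control. At TZ 5 it stood at 1.46-fold (1.22 to 1.75) UPM, and at 1.08-fold (0.916 to 1.28) the control. Its slope of 0.098 (SE 0.038) was not called (adjusted p = 0.124). Tars2, for threonine, had 38.0, 43.1, 48.9 and 48.4 in order of dose, against 43.7 in the control. For both genes UPM was the lowest library. Lars2, for leucine, had 12.4, 12.1, 16.3 and 15.5, against 13.4, and Fars2, for phenylalanine, had 9.93, 8.59, 11.4 and 13.1, against 9.72. These 2 genes stood highest at the 2 higher doses, with intervals against UPM that held 1.

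Ears2, the mitochondrial glutamyl enzyme, had 20.3 normalised CPM in UPM, 17.9 at TZ 1.25, 14.4 at TZ 2.5 and 14.2 at TZ 5, against 17.6 in the control. Its slope of −0.11 (SE 0.052) was not called (adjusted p = 0.270). Iars2 had 129, 112, 107 and 115 in order of dose, against 129 in the control. Each TZ library had a lower value than UPM for both genes, and at TZ 2.5 both intervals lay below 1. Rars2, for arginine, had 18.0, 13.0, 12.7 and 16.4, against 21.3 in the control, and Nars2, for asparagine, had 13.5, 11.4, 10.8 and 12.2, against 11.4. For Nars2 every interval in the 5 comparisons held 1. Hars2, for histidine, had 10.8, 14.7, 12.6 and 12.6, against 16.2. The 7 genes under 10 CPM had between 9 and 66 counts per library and were below the minimum for a call. Aars2 had 9 counts in UPM, 17 at TZ 1.25, 28 at TZ 2.5 and 20 at TZ 5, against 19 in the control. At TZ 2.5 it stood at 3.44-fold (1.58 to 8.28) UPM. Vars2, for valine, had 5.10 normalised CPM in UPM, 9.15 at TZ 1.25, 7.07 at TZ 2.5 and 8.56 at TZ 5, against 7.32 in the control. For both genes UPM was the lowest library, and with a minimum of 1 CPM both were called higher in TZ 5 than in UPM.

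**Figure D5:**
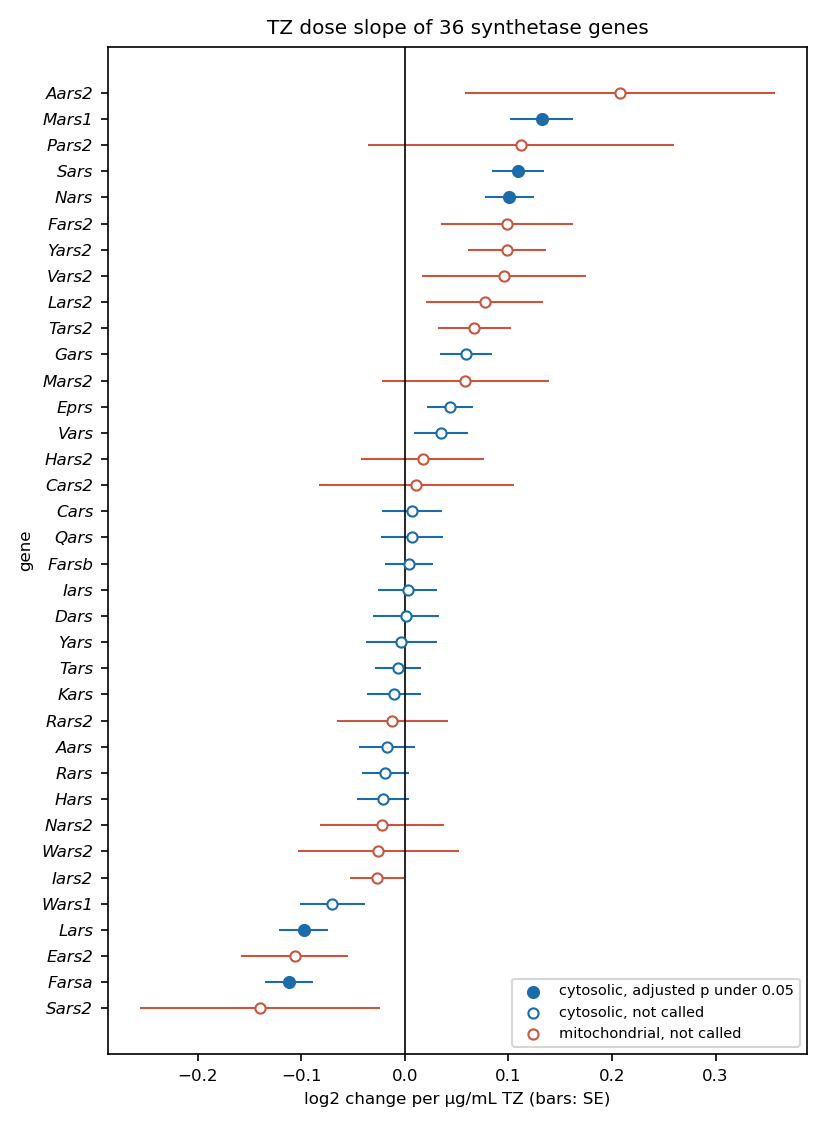
Slope of TZ dose for 36 synthetase genes, in log2 units per µg/mL, from the fit of all 5 libraries, in descending order. Whiskers are standard errors, blue is cytosolic and red mitochondrial, and filled points are the 5 genes with an adjusted p under 0.05. Slopes run from −0.14 to 0.21, with the ends held by Sars2 and Aars2, which have few counts and wide errors.

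The message of ATF4 itself differed between libraries. Atf4 had 525 normalised CPM in UPM, 606 at TZ 1.25, 693 at TZ 2.5 and 672 at TZ 5, against 702 in the control. In UPM it was 0.748-fold (0.718 to 0.780) the control. The 12 ATF4-responsive synthetases summed to 2304 in UPM, 2326 at TZ 1.25, 2619 at TZ 2.5 and 2587 at TZ 5, against 2596 in the control. UPM stood at 0.888-fold (0.870 to 0.906) the control, and TZ 5 at 1.12-fold (1.10 to 1.15) UPM and 0.997-fold (0.977 to 1.02) the control. The 8 other cytosolic synthetases summed to 1306, 1325, 1212 and 1192 in the 4 UPM libraries in order of dose, against 1420 in the control. Here UPM stood at 0.920-fold (0.895 to 0.945) the control, and TZ 5 at 0.912-fold (0.886 to 0.939) UPM.

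These sums rest on few genes. Without Nars and Sars, an alternative chosen after the data were seen, the ATF4-responsive sum at TZ 5 was 1.01-fold (0.987 to 1.04) UPM and 0.934-fold (0.911 to 0.957) the control, so the sum near the control level at TZ 5 rests on these 2 genes. Without Farsa, likewise, the sum of the other genes was 0.996-fold (0.963 to 1.03) UPM. In the dose trend 3 of the 12 ATF4-responsive genes rose (Mars1, Nars and Sars, 25%) and 1 fell (Lars, 8.33%). Of the 8 others none rose and 1 fell (Farsa, 12.5%). Over all genes 2.95% rose and 2.5% fell, and the shares of these short lists rest on few called genes. The median slope was 0.0048 over the 12 and −0.0048 over the 8, beside 0.0016 over all genes. None of the 5 genes with the element core printed above was called in the dose trend, and of the 5 called genes the 3 with a promoter entry (Sars, Mars1 and Farsa) had no match in that window.

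By catalytic class, the 18 class I enzymes had 1 gene that rose and 1 that fell (5.56% each), with a median slope of 0.0047. The 18 class II enzymes had 2 that rose (11.1%) and 1 that fell (5.56%), with a median of 0.0026. Over all genes 2.95% rose and 2.5% fell. Eprs holds a domain of each class and was left out of both. In UPM against control the medians of the measured members were −0.12 for class I and −0.16 for class II on the log2 scale.

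Of the wider pathway, 24 genes of ATF4 and amino acid supply had 2 members called lower of 19 measured in UPM against control, beside 1.41% of all measured genes, and a median log2 fold of −0.22. The called genes were Ddit3, at 53.6 normalised CPM in UPM against 98.6 in the control, and the pseudokinase gene Trib3, at 26.3 against 47.4. Of the 19, 11 had an interval below 1 (57.9%) and 1 an interval above 1 (5.26%). Over all measured genes these shares were 18.6% and 15.4%. At TZ 2.5 10 of 18 measured members had an interval above UPM (55.6%) and 4 below (22.2%), beside 20.3% and 20.7% of all measured genes. At TZ 5 11 of 18 lay above (61.1%) and 3 below (16.7%), beside 23.3% and 21.7%. The median log2 fold was 0.19 at TZ 2.5 and 0.17 at TZ 5. These comparisons share the UPM library. In the dose trend by edgeR 1 of 23 tested members rose (4.35%) and 2 fell (8.70%), beside 2.95% and 2.5% of all genes. DESeq2 gave 13 members of the list an adjusted p and called 0. It had 5 of the whole list at an unadjusted p under 0.05, beside 1036 of all 19451 genes. Pck2, a mitochondrial enzyme of gluconeogenesis, rose by 0.15 per µg/mL on the log2 scale (SE 0.038, adjusted p = 0.00941). Sesn2, a sensor of leucine, fell by 0.35 (SE 0.086, adjusted p = 0.00811). That slope amounts to −1.75 log2 units over 5 µg/mL. The lowest log2 fold of the 18 members measured in TZ 5 against UPM was −0.45. Sesn2 was thus probably under the minimum of 10 CPM there, and its call is less certain. Slc3a2, the heavy chain of an amino acid transporter, fell by 0.073 (SE 0.023, adjusted p = 0.0438). The slope of Atf4 was 0.068 (SE 0.023) and was not called (adjusted p = 0.0613).

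Of 16 accessory genes of tRNA charging none was called in the dose trend, with 3 at an unadjusted p under 0.05 in edgeR, beside 2175 of all 12381 genes. DESeq2 had 0 at that p, and called 0 of the 6 it gave an adjusted p. At TZ 2.5 the 1 of 14 measured that was called against UPM was Qrsl1, higher, where 2.67% of all measured genes were called higher and 1.73% lower. Qrsl1 encodes a subunit of the mitochondrial glutaminyl-tRNA amidotransferase, which mitochondria use in place of a glutaminyl enzyme. It had 9.80 normalised CPM in UPM, 14.3 at TZ 1.25, 15.3 at TZ 2.5 and 13.8 at TZ 5, against 8.92 in the control. Qrsl1 was also the 1 of 14 called at TZ 5 against the control (1.55-fold), beside 3.55% of all measured genes called higher. Dtd2 was the 1 of 13 called in UPM against the control (1.56-fold), beside 1.67% called higher. Of 9 mitochondrial translation factor genes none was called in the dose trend, with 1 at an unadjusted p under 0.05 in edgeR, beside the same 2175 of 12381. DESeq2 had 0 at that p, and called 0 of the 2 it gave an adjusted p. Mrrf, the mitochondrial ribosome recycling factor, had 18.0, 12.8, 13.0 and 11.6 in order of dose, against 10.5 in the control. It was the 1 of 8 measured that was called higher in UPM than in the control, beside 1.67% of all measured genes. In TZ 5 it was the 1 of 8 called lower than in UPM, beside 2.8%.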

How the data were processed

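Each library's table holds unnormalised counts by gene symbol, as the authors deposited them, from single-end QuantSeq reads of 75 bp, per the labels' protocols. STAR, edgeR and GRCm39 are named in the submitters' processing notes. The counting program, annotation and strand setting are not given in sources used here. By GENCODE exons 14 of the 37 genes overlap a gene on the opposite strand (among them Cars, Cars2, Ears2, Fars2, Farsb, Hars, Hars2, Iars2, Mars1, Nars2, Vars2 and Yars) and Aars overlaps 1 on the same strand as well, so their counts are less certain.

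Libraries were scaled by TMM factors (0.991 to 1.01). Folds between 2 libraries carry exact conditional binomial (Clopper-Pearson) intervals. A count of 0 would allow 3 counts, or 0.390 to 0.439 CPM. The fit used edgeR 4.0.16 (R 4.3.3) on genes kept by filterByExpr, with UPM and linear TZ dose as terms. SE is the estimate over the root of F. Scripts were checked on simulated data, where the planted dose slopes were larger than those of the called synthetases. Recovery of slopes of the reported size was not checked. Alternatives were DESeq2 1.42.0, other scalings, filters, folds and left-out libraries. All 37 genes were tested by edgeR; values are given for most of those called, in the complex, or with the 3 highest or lowest folds per class, and some others. The members and lists were chosen with earlier results of these data known. Planned protein identities were not computed. One gene's values and 1 promoter match are not reported here.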

Additional observations from a re-analysis of the deposited data

How the results depend on the processing

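No paired analysis was possible because each group has 1 library. Alternatives were run for the class sums, the called counts and the counts in the 5-library fit. Of these, 105 left the value within its interval or within 1.5 times and 17 did not. No direction whose interval excluded 1 reversed. Where the main count of calls was 0, a fold of 2 or a CPM minimum of 30 could only return 0. Those settings are among the 105 and tested nothing there. Leaving out a UPM library gave 2 to 5 genes called in the dose trend, with 2 (Farsa and Mars1) without UPM and 3 (Lars, Nars and Sars) without TZ 5, and 0 to 1 in the UPM term (Sars, without TZ 5). Without Iars2 the mitochondrial sum against UPM was 1.05-fold at TZ 1.25, 1.11-fold at TZ 2.5 and 1.12-fold at TZ 5. Scaling by totals gave 1.08-fold for the cytosolic sum at TZ 2.5. For genes called higher than in UPM, a fold of 2 left 0 at TZ 2.5 and 0 at TZ 5, while a CPM minimum of 1 gave 1 at TZ 1.25 (Vars2), 2 at TZ 2.5 (with Aars2) and 3 at TZ 5 (with Aars2 and Vars2). At TZ 5 DESeq2 size factors left 0, and totals or thinned libraries gave 2 (Mars1 and Sars), as both genes lie at the limit of 1.5. Thinning called 1 gene lower in UPM than in the control (Hars2), and a fold of 2 left 0 lower in TZ 5 than in the control. With DESeq2 4 genes (not Sars) were called in the dose trend. Over all genes the dose trend called 365 higher and 309 lower, against 161 and 134 with DESeq2 (which gave 4176 genes an adjusted p), 115 and 94 without UPM and 215 and 155 without TZ 5. The cause of these differences was not tested beyond the genes named. Depth limits the 7 mitochondrial genes under 10 CPM most, but others of the 17 as well. DESeq2 gave an adjusted p to 1 of the 17, and Fars2, above that mean, had 62 to 90 counts per library. The lack of mitochondrial calls is thus limited by depth, with 1 library a group.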
